A study of Homo sapiens
Mus musculus with 8 samples.

Results

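IVA12 is a mouse line of B cells. It was grown in DMEM with serum and mixed in equal parts with the mouse T cell line EL4 and the human T cell lines Jurkat and TALL-104, and the mixture was profiled by droplet single-cell RNA sequencing on the Chromium system of 10x Genomics. The 3′ v3 kit, which counts messenger RNA from its 3′ end, had been used on 2 cell mixtures, each split over 2 libraries. Libraries 21 and 23, with targeted captures of 3000 and 6000 cells, are listed by the study under mixture F, and libraries 22 and 24, with the same targets, under mixture G. The labels name no genotype, agent or time by which the mixtures differ, so F and G are here 2 preparations of the same cell lines. The study lists interleukin-2 in the medium of TALL-104, which is part of the mixture. The question was which genes and pathways differed in IVA12 between these preparations.

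The cells described were chosen by their own values. A barcode was taken as IVA12-like when it held at least 5000 unique molecular identifiers (UMIs, each standing for 1 captured RNA molecule), over 80% of them on mouse genes, under 10% of its mouse UMIs on mitochondrially encoded genes, and Epcam, Cd24a, Ctss and Ckap4 together at 0.02% of mouse UMIs or more and at least 5 times the sum of Lgals1, S100a6 and Perp, which mark EL4. The rule found 3190 IVA12-like cells. Libraries 21 to 24 together had 16815 barcodes with 5000 UMIs or more, and all libraries read here had 23147. There were 572 and 1513 in libraries 21 and 23 (2085 in F) and 376 and 729 in libraries 22 and 24 (1105 in G). Libraries 23 and 24 shared 1 barcode of IVA12-like cells, and no other pair of these libraries shared any. Near the limits of the rule, and counted per library, 0 to 4 cells held 5000 to 6000 UMIs and 3 to 10 fell short with 4000 to 5000. A mitochondrial share of 9% to 10% was held by 8 to 42 cells, and 1 to 9 were left out at 10% to 11%. At a marker ratio of 5 to 6 there were 31 to 63 cells, and 3 to 39 were left out at 4 to 5. The count at 5 to 6 also includes cells with no EL4 marker UMI and under 6 IVA12 marker UMIs.

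B lineage cells pass from a stage that displays antigen receptors and MHC class II to the plasma cell stage, where the factors Prdm1, Irf4 and Xbp1 support the secretion of antibody. A cell line carries this programme together with the general machinery of growth, such as the nuclear genes of oxidative phosphorylation and the proteasome, and with the RNAs that stay in the nucleus. Neat1 is a long noncoding RNA that builds the paraspeckles of the nucleus, and Malat1 lies in nuclear speckles. Interferons raise a set of antiviral genes, among them Isg15, and the MHC class I molecules that present peptides made by the proteasome.

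The plasma cell genes Jchain and Mzb1 were the most abundant of the markers. Levels are given in CPM, the UMIs of a gene scaled to a common library total, which is raw CPM when the total is that of all mouse UMIs. Jchain, the joining chain of secreted antibody, stood at 3185 and 2884 raw CPM in libraries 21 and 23 and at 2039 and 1961 in 22 and 24, against 26.8 to 73.7 in EL4-like cells of the same libraries. Mzb1, a chaperone of antibody assembly, stood at 818 to 1277 raw CPM. Of 18 B lineage markers in the table, 7 exceeded 10 raw CPM in every library, among them Cd79b, Ms4a1, Blnk, Cd74 and Pou2af1. Blk, a kinase of B cells, had no UMI in IVA12-like cells of these libraries, and Cd79a, Pax5, Cd22 and Cr2 lay under 0.5 raw CPM. Over the IVA12-like cells of 1 library, 0 UMIs allow at most 3 UMIs, and this bound covers counting error only. Of 16 T lineage markers only Cd6 exceeded 10 raw CPM in every library, and their sum was 45.5, 77.3, 42.8 and 60.4 raw CPM in libraries 21, 23, 22 and 24, against 3107 to 3364 in EL4-like cells. The cells therefore carried little RNA of the T line, most in library 23.

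The genes that the rule used are given as levels, with no test. Epcam, an adhesion protein, stood at 199 and 214 raw CPM in libraries 21 and 23 and at 103 and 108 in 22 and 24, and the cathepsin Ctss at 158 and 157 against 81.0 and 78.2. Cd24a stood at 56.0 to 59.5 and Ckap4 at 199, 212, 223 and 242 in libraries 21, 23, 22 and 24. The 13 mitochondrially encoded genes held 5.72% and 4.30% of the summed mouse UMIs in F and 6.56% and 6.82% in G, so this share was higher in G, and the limit of 10% kept 85.2% and 87.4% of the cells in F and 97.7% and 83.6% in G.

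The libraries differed in depth, cell number and free RNA. The summed mouse UMIs of IVA12-like cells were 20782423 and 52972815 in libraries 21 and 23 and 11321241 and 21358016 in 22 and 24, with medians of 35590, 33844, 29926 and 29296 UMIs per cell. The median human share of a cell, a measure of RNA from other cells, was 0.492%, 1.03%, 0.216% and 0.370% in the same order. This share also depends on how much of the free RNA is human, which was 13.7%, 31.8%, 12.2% and 9.61%. With this taken into account, the estimated free RNA in IVA12-like cells was 3.58%, 3.24%, 1.77% and 3.85%, highest in library 24 of G. Both libraries of a preparation came from the same mixture, so p-values measure the spread between libraries of 1 mixture. Preparation, culture and processing run cannot be told apart.

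Gene detection at equal depth was higher in G. Each cell was thinned at random to 5000 mouse UMIs, and the median number of genes seen was 1845 and 1842 in F and 1986 and 1983 in G. The difference of 141 genes was far larger than the gap between libraries of a preparation. An exact permutation test over libraries gave p = 0.33, two-sided, the smallest p that 2 against 2 libraries allow. Without thinning, the medians were 5144 and 5061 genes in F and 5206 and 5153 in G, at a lower median UMI count in G.

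Most genes differed between the preparations. The UMIs of IVA12-like cells were summed per library and compared with the quasi-likelihood test of edgeR, over 11576 genes that passed a filter on low counts, with Benjamini-Hochberg adjustment (genes used by the rule were left out of counts). At an adjusted p under 0.05, 7825 genes were called, or 67.6% of those tested, of which 3845 (33.2%) were higher in G and 3980 (34.4%) were lower. Beyond 2-fold, 906 (7.83%) were higher and 1027 (8.87%) were lower. For 9700 genes (83.8%) the libraries of F and G did not overlap. With so high a background, a called gene says little on its own, and the lists below are read against these shares. The split rests on TMM scaling, which assumes that most genes are alike. With library sizes alone the median of all genes moved from -0.01 to 0.24 on the log2 scale, and 5173 calls were higher and 2774 lower, or 65.1% higher in place of 49.1%. All log2 differences below are of G minus F after TMM scaling, each with its SE, and levels without the word raw are CPM after the same scaling.

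**Figure D1:**
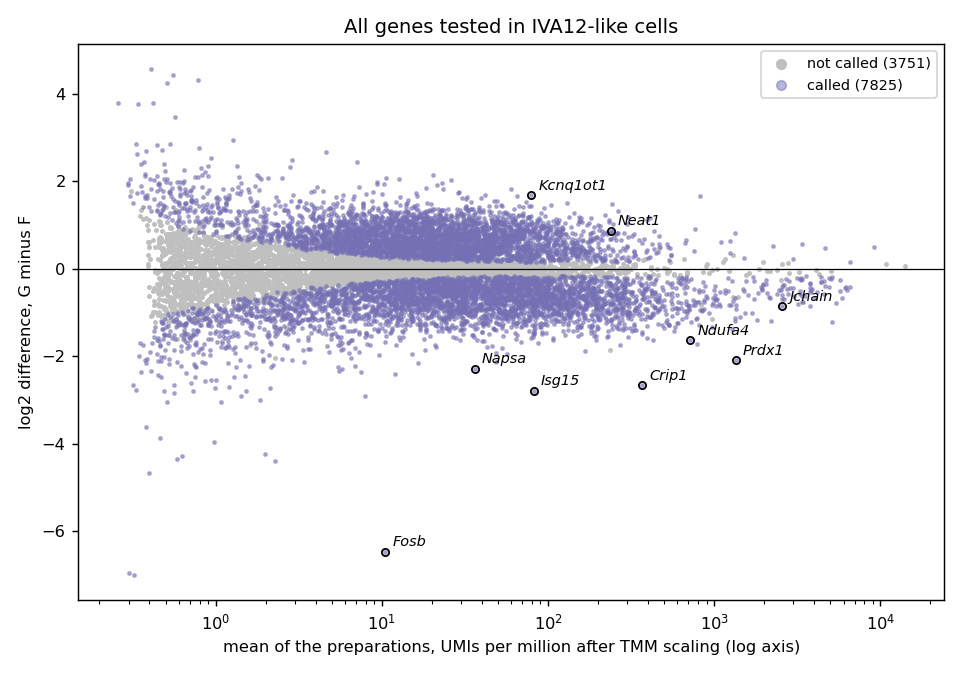
Each of the 11576 tested genes is a point, with the mean level of the preparations in CPM after TMM scaling on the log x axis and the log2 difference of G minus F on the y axis. The 7825 called genes spread to both sides of 0 over the whole range of levels, and of the labelled genes Fosb lies lowest at -6.48.

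Neat1 was singled out with earlier results known, so its values are a description and no p is given. Its level was 190 and 149 CPM in libraries 21 and 23 and 292 and 325 in libraries 22 and 24. Both libraries of G lay above both of F, and the log2 difference was 0.87 ± 0.11 (SE), or 1.83-fold. It ranged from 0.69 to 1.08 when each library was left out in turn. In EL4-like cells of the same libraries, Neat1 stood at 133 and 103 raw CPM in F and at 225 and 213 in G, a log2 difference of 0.54, and the difference between the lines was 0.29 ± 0.08. In IVA12-like cells of the other kits Neat1 stood at 56.0 raw CPM in the 3′ v2 library and at 87.0 and 89.8 in the 5′ v1 libraries, which count other transcript ends.

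Neat1 was seen in more cells of G as well as at a higher level. At 5000 UMIs per cell, 51.2% (exact 95% binomial interval 47.0% to 55.4%) and 44.0% (41.4% to 46.5%) of IVA12-like cells held a Neat1 UMI in libraries 21 and 23, against 64.1% (59.0% to 69.0%) and 67.8% (64.2% to 71.1%) in 22 and 24. In human cells of these libraries, which lack the mouse gene, the share was 1.01% to 2.97% at median depths of 10381 to 17856 UMIs. Free RNA, taken from barcodes under 100 UMIs, held Neat1 at 88.5, 268, 141 and 128 raw CPM in libraries 21, 23, 22 and 24, and subtraction of the estimated free RNA left the log2 difference at 0.89.

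Within F, Neat1 was highest in the cells of highest mitochondrial share. Cells of F with a mitochondrial share of 8% to 10% held Neat1 at 284 and 267 raw CPM, against 163 and 137 at 4% to 5%. In G it stood at 311 to 338 in library 22 over the shares from 4% to 10%, and in library 24 at 459 for 4% to 5% and 333 to 368 above that. At each matched share both libraries of G lay above both of F, with the smallest gap at 8% to 10%, where G stood at 321 and 345. With the cells limited to shares of 5% to 10%, an alternative added after seeing the data, the log2 difference of Neat1 was 0.67.

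**Figure D2:**
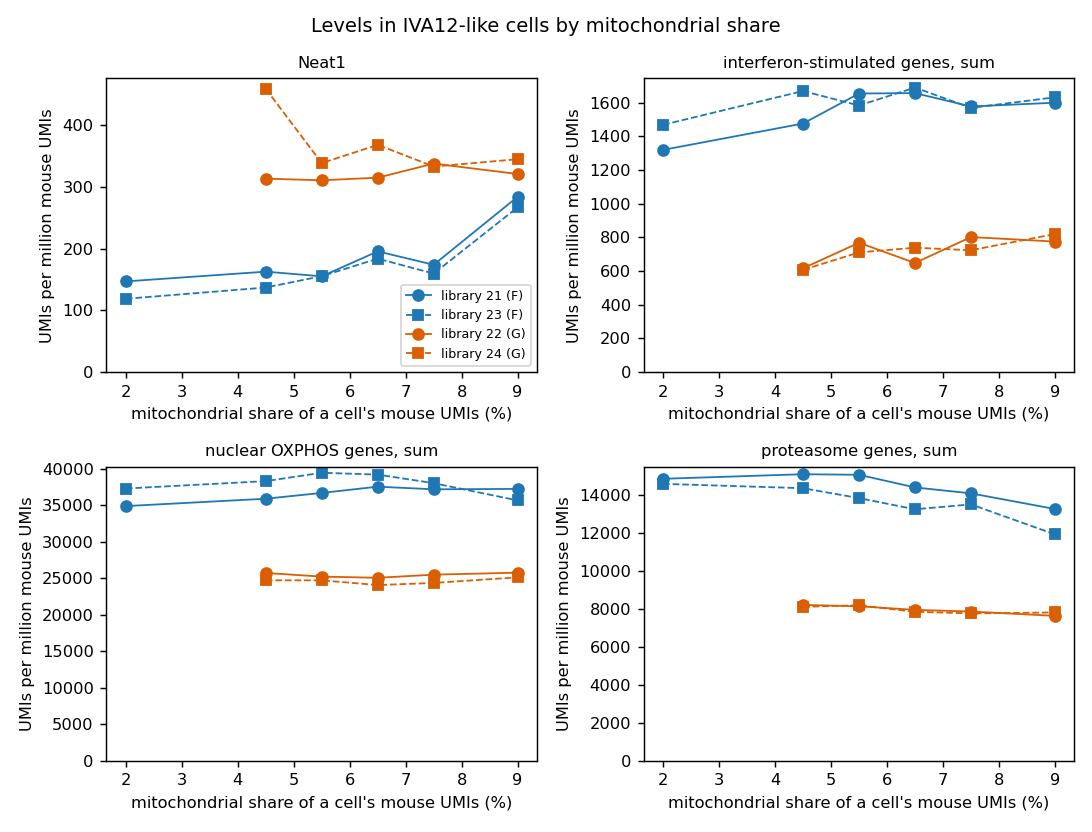
The 4 panels give the level of Neat1 and the summed levels of the interferon-stimulated, nuclear oxidative phosphorylation (OXPHOS) and proteasome genes in raw CPM (y axes from 0) against the mitochondrial share of a cell in percent, for groups of at least 20 IVA12-like cells, by library. Libraries of F are blue and libraries of G orange, and the gap between them is present at every share that both preparations hold.

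Among 7 tested nuclear long noncoding RNAs, 5 were called higher in G and 0 lower, and the median log2 difference was 0.51 (all genes tested, -0.01). Neat1 and Malat1 are among the 5, and since Neat1 was singled out with earlier results known, the count is a description. In EL4-like cells 3 of the 7 were called higher and 0 lower, against 27.1% higher and 30.3% lower of the 11916 genes tested there. Kcnq1ot1, an antisense RNA of an imprinted locus, stood at 41.4 and 34.4 CPM in F and 112 and 130 in G, a log2 difference of 1.69 ± 0.10 (adjusted p = 3.3e-06, edgeR). Ftx, from the X inactivation centre, rose by 0.57 ± 0.12, and Pvt1 by 0.38 ± 0.09. Whether strand was used in the counting is not given in the sources used here, so RNA of an antisense partner cannot be set apart. Malat1, named after its values were seen, stood at 5599 and 9456 CPM in libraries 21 and 23 and at 9910 and 11469 in 22 and 24. The gap between libraries 21 and 23 exceeded that between 23 and 22, and the log2 difference of 0.51 became 0.20 without library 21 and 0.92 without library 23.

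The largest rises in G were taken among called genes with a mean of 50 raw CPM or more in a preparation and no overlap between preparations. This choice favours genes with a wide gap between preparations, so the gaps are a description. Kcnq1ot1 was one of these genes. Gabpb2, a subunit of a transcription factor of the ETS family, stood at 25.9 and 27.0 CPM in F and at 89.3 and 98.2 in G, a log2 difference of 1.83 ± 0.07. The nucleolar deubiquitinase gene Usp36 stood at 31.1 and 31.2 in F against 96.5 and 101.2 in G, and Dusp16, a phosphatase of MAP kinases, at 18.5 and 20.8 against 62.6 and 64.3. Within each of these pairs the gap between preparations was many times that between libraries. The chromatin genes Kmt2c (a histone methyltransferase), Prdm2 and Epc2 rose by 1.52, 1.55 and 1.64. Plec and Dst, which encode very large linkers of the cytoskeleton, rose by 1.62 and 1.54. Zfp609, Trim56 and Ddi2 rose by 1.60, 1.62 and 1.54. These 11 genes had an adjusted p of 2.5e-06 or less and kept a rise of at least 1.45 when any library was left out.

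The largest falls in G were taken in the same way. Isg15, an interferon-induced relative of ubiquitin, stood at 150 and 137 CPM in F and at 19.3 and 21.7 in G, a log2 difference of -2.79 ± 0.08, or 6.93-fold lower. Prdx1, a peroxiredoxin that removes peroxide, stood at 2191 and 2170 in F and 513 and 509 in G, a log2 difference of -2.09 ± 0.06. The aspartic protease gene Napsa fell by 2.29 ± 0.10, from 59.3 and 60.4 to 13.8 and 11.2. In all 3 genes the libraries of a preparation lay close together and the preparations far apart. Mcts1, a translation factor, and Ifi27, another interferon-induced gene, had log2 differences of -1.95 and -1.92. The values were -1.89 for Pttg1, the securin of mitosis, -1.81 for Emp3, -1.79 for Gstp1, a glutathione transferase, -1.77 for Actr10 of the dynactin complex, -1.75 for Uqcrb of respiratory complex III and -1.73 for Psmb3 of the proteasome core. The reads of Prdx1 may be split with its near-identical pseudogenes. The adjusted p-values of these genes were 2.9e-06 or less (edgeR).

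**Figure D3:**
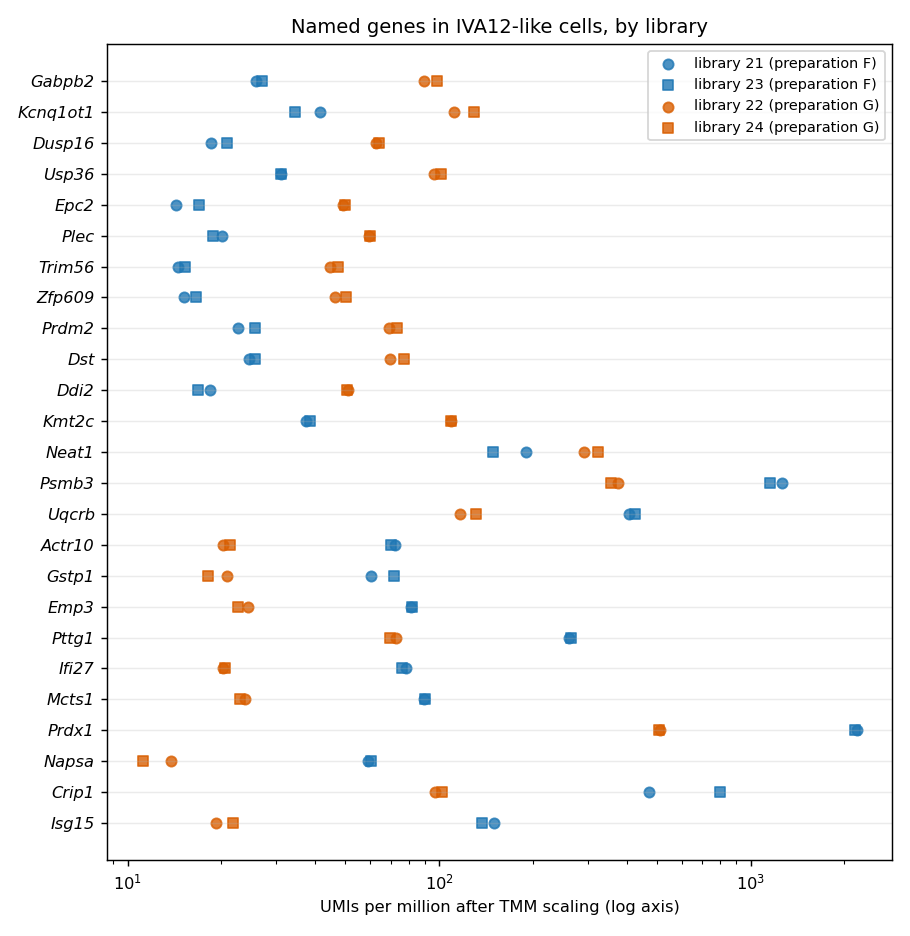
Levels of Neat1 and of the 24 genes with the largest differences are given per library on a log x axis in CPM after TMM scaling, ordered by their log2 difference from Isg15 at the foot to Gabpb2 at the top. In all of them both points of G lie on the same side of both points of F, which the choice of the 24 genes required. Crip1 has the widest gap between libraries of a preparation, 470 and 797.

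Crip1, a small LIM domain protein, stood apart from the others, since few cells carried most of its UMIs. Its summed level was 470 and 797 CPM in F and 97.0 and 102 in G, a log2 difference of -2.67 ± 0.21 (adjusted p = 9.2e-06). Cells with Crip1 at 0.1% of mouse UMIs or more made up 4.72% and 5.75% of IVA12-like cells in libraries 21 and 23 and 3.19% and 3.02% in 22 and 24, and they held 90.9% to 95.2% of its UMIs. In the remaining cells Crip1 stood at 24.96 and 36.8 raw CPM in F and at 9.05 and 10.4 in G. At 5000 UMIs, 16.3% and 19.9% of IVA12-like cells held a Crip1 UMI in F and 7.18% and 6.58% in G, against 4.53% and 7.39% and 0.714% and 1.37% of human cells and 42.3% to 70.4% of EL4-like cells. Of 10 tested genes of a list of S100, galectin and annexin genes with Crip1, 8 were lower in G and 0 higher, with a median of -1.05. Among them S100a10 fell by 1.26 ± 0.09, Lgals9 by 0.84 ± 0.14 and Anxa5 by 0.51 ± 0.08. In EL4-like cells Lgals9 stood at 181 to 227 raw CPM and Anxa5 at 90.3 to 94.9. Their levels in IVA12-like cells were 7.95 to 15.1 and 17.2 to 21.0. S100a10 was lower in EL4-like cells, at 0 to 0.872 against 10.4 to 21.7. After subtraction of the estimated free RNA only 6 members of the list were tested, of which 6 were lower, with a median of -0.77. The EL4 markers of the rule, Lgals1, S100a6 and Perp, summed to 25.6 and 30.6 raw CPM in the F cells and 9.01 and 14.7 in the G cells, but they were also lower in EL4-like cells of G, at 1352 and 1324 against 2388 and 2275. The raw CPM sum over 16 T lineage markers overlapped between preparations, while the scaled sum over the 19 tested markers of a wider list, at 74.8 and 122.5 in F and 56.3 and 73.5 in G, did not. Subtraction of free RNA left the log2 difference of Crip1 at -2.69, and the part of EL4 RNA in the other falls was not tested.

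Interferon-stimulated genes were the list with the lowest median, -1.41. Of 29 tested members 24 were lower in G, 1 (Stat2) was higher and 4 were not called, and 16 fell more than 2-fold. Their summed level was 1712 and 1725 CPM in F and 661 and 677 in G. Irf7, the factor that amplifies interferon production, stood at 27.5 and 26.4 in F against 5.48 and 6.34 in G, a log2 difference of -2.16 ± 0.10. Ifitm3, which blocks viral entry, fell by 1.52 ± 0.06, and Ifi35 by 1.46 ± 0.07. Stat2, part of the receptor's signalling complex, rose by 0.59 ± 0.10. At matched mitochondrial shares from 4% to 10%, the raw CPM of the list summed to 1477 to 1691 in F and 607 to 820 in G. At 5000 UMIs, 39.0% (35.0% to 43.1%) and 35.8% (33.4% to 38.3%) of IVA12-like cells of F held an Isg15 UMI, against 7.71% (5.23% to 10.9%) and 7.27% (5.49% to 9.40%) in G. In EL4-like cells this share was 0.965% to 3.20% and in human cells at most 1.21% (0 of 280 in library 22, whose exact interval reaches 1.31%), both below the share in the G cells.

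MHC class I genes fell with them. Of 13 tested, 12 were lower in G and 1 (Nlrc5, their transcriptional activator) was higher, with a median of -1.27. H2-K1 stood at 302 and 282 CPM in F and at 100 and 90.4 in G, a log2 difference of -1.62 ± 0.07. The log2 differences were -1.501 for H2-D1, -1.504 for H2-T23 and -1.27 for H2-Q7. These class I genes are near copies of each other, and the counting could have split their reads. Psmb8, a subunit of the immunoproteasome that trims peptides for class I, fell by 1.64 ± 0.06. Only 4 of the 11 MHC class II genes were tested, of which 3 were lower (1 with DESeq2 and 2 with library sizes alone). Their median of -1.19 ranged from -1.38 to -0.97 when each library was left out. Most of their summed level, 138 and 115 CPM in F and 50.8 and 42.4 in G, was Cd74, at 133 and 110 in F against 47.4 and 39.5 in G. H2-Aa stood at only 0.0883 to 0.755 raw CPM in IVA12-like cells. H2-Eb1 stood at 0.655 to 1.40, below its 1.80 to 4.31 in EL4-like cells.

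The fall in interferon-stimulated and class I genes was smaller in EL4. In EL4-like cells of the same libraries the median over the interferon list was -0.30, with 10 of 25 called lower (57.4% of 11916 genes were called in these cells, 27.1% higher and 30.3% lower, and beyond 2-fold 4.42% higher and 4.72% lower), and over class I genes -0.33, with 8 of 12 called lower. The difference between the lines was itself tested, as an interaction of line and preparation with the library as a block. It called 17 of 29 interferon-stimulated genes and 9 of 13 class I genes as falling more in IVA12, and 0 of either as falling less, where the background was 9.01% lower and 7.38% higher of 13015 genes. For H2-K1 the difference was -1.05 and for Isg15 -1.96. Isg15 in EL4-like cells stood at only 3.71 to 5.44 raw CPM, whereas H2-K1 stood at 678 to 870 there. In IVA12-like cells the median of the list stayed between -0.94 and -1.46 for interferon-stimulated genes and between -1.02 and -1.32 for class I genes under every alternative run. The counts of the test of the difference for these lists were made with the main setting only. Over all genes that test called 2134 with the main setting and 977 with DESeq2.

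**Figure D4:**
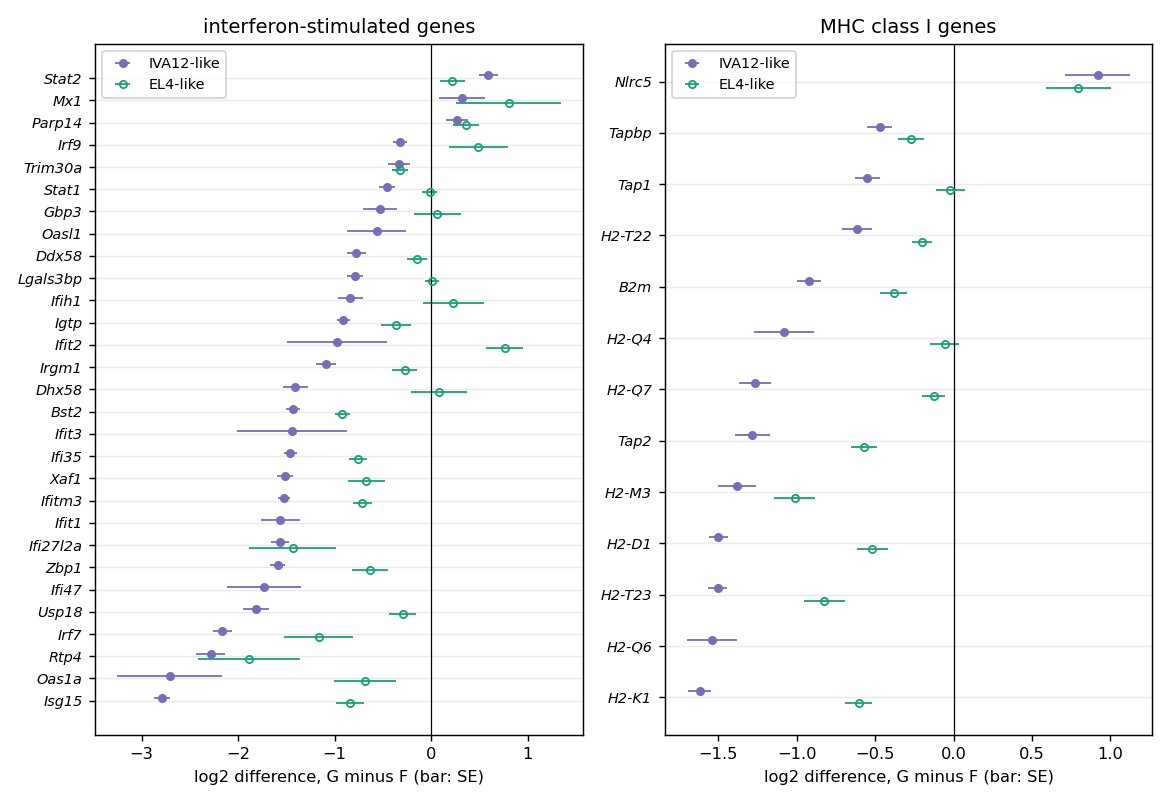
The log2 difference of G minus F with its SE is given on the x axis for each tested interferon-stimulated gene (left) and MHC class I gene (right), in IVA12-like cells (filled) and EL4-like cells (open). Most filled points lie left of the open ones, and Isg15 and H2-K1 have the lowest values in IVA12, at -2.79 and -1.62.

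Nuclear genes of oxidative phosphorylation, of the mitochondrial ribosome and of the proteasome were mostly lower in G. Of 82 nuclear oxidative phosphorylation genes 77 were lower and 1 higher, against 34.4% and 33.2% of all genes, and their median was -0.88. Their sum was 39820 and 41798 CPM in F and 23134 and 22530 in G. Ndufa4, a subunit of the respiratory chain, stood at 1058 and 1112 in F against 353 and 349 in G, a log2 difference of -1.63 ± 0.06. Ndufs3 of complex I fell by 1.54 and Uqcrc2 of complex III by 1.44. The mitochondrially encoded genes of the same chain, which the rule used, are given without scaling, and their summed raw share was higher in G. With library sizes alone the median of the nuclear genes was -0.63. This did not hold for each of them. Among them mt-Nd4l was lower in G, at 414 and 448 raw CPM against 507 and 947 in F. The raw levels of mt-Cytb, mt-Nd2 and mt-Atp8 overlapped between preparations, and those of the rest were higher in both libraries of G. The TMM factors, which multiply the library totals, were 0.920 and 0.911 in F and 1.10 and 1.09 in G. Scaling therefore raises levels of F and lowers those of G. Whether the mitochondrially encoded genes were higher in G after scaling was not tested. Of 77 genes of mitochondrial ribosomal proteins 71 were lower and 1 higher, with a median of -0.80, among them Mrpl39 (-1.56), Mrpl22 (-1.17), Mrpl24 (-1.15) and Mrps34 (-1.11).

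Of 43 proteasome genes 40 were lower and 1 higher, 25 of them by more than 2-fold, and the median was -1.09. The core subunit Psmb3 stood at 1262 and 1157 CPM in F and 374 and 357 in G, Psmb2 fell by 1.62 ± 0.06 and the ATPase Psmc4 by 1.42 ± 0.06. The sum over the proteasome genes was 15950 and 15696 in F and 7257 and 7270 in G. These falls were shared with EL4-like cells, where 71 of 80 oxidative phosphorylation genes, 69 of 77 mitochondrial ribosomal genes and 40 of 43 proteasome genes were lower, with medians of -0.71, -0.58 and -0.79. They were somewhat deeper in IVA12, and the test of the difference called 34 of 82, 34 of 77 and 26 of 43 as falling more there. For each of these lists the median stayed under -0.5 with every alternative, library sizes alone included. At matched mitochondrial shares from 4% to 10%, the raw CPM of the oxidative phosphorylation genes summed to 35668 to 39459 in F and 24076 to 25773 in G, and those of the proteasome genes to 11920 to 15086 in F and 7630 to 8205 in G.

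**Figure D5:**
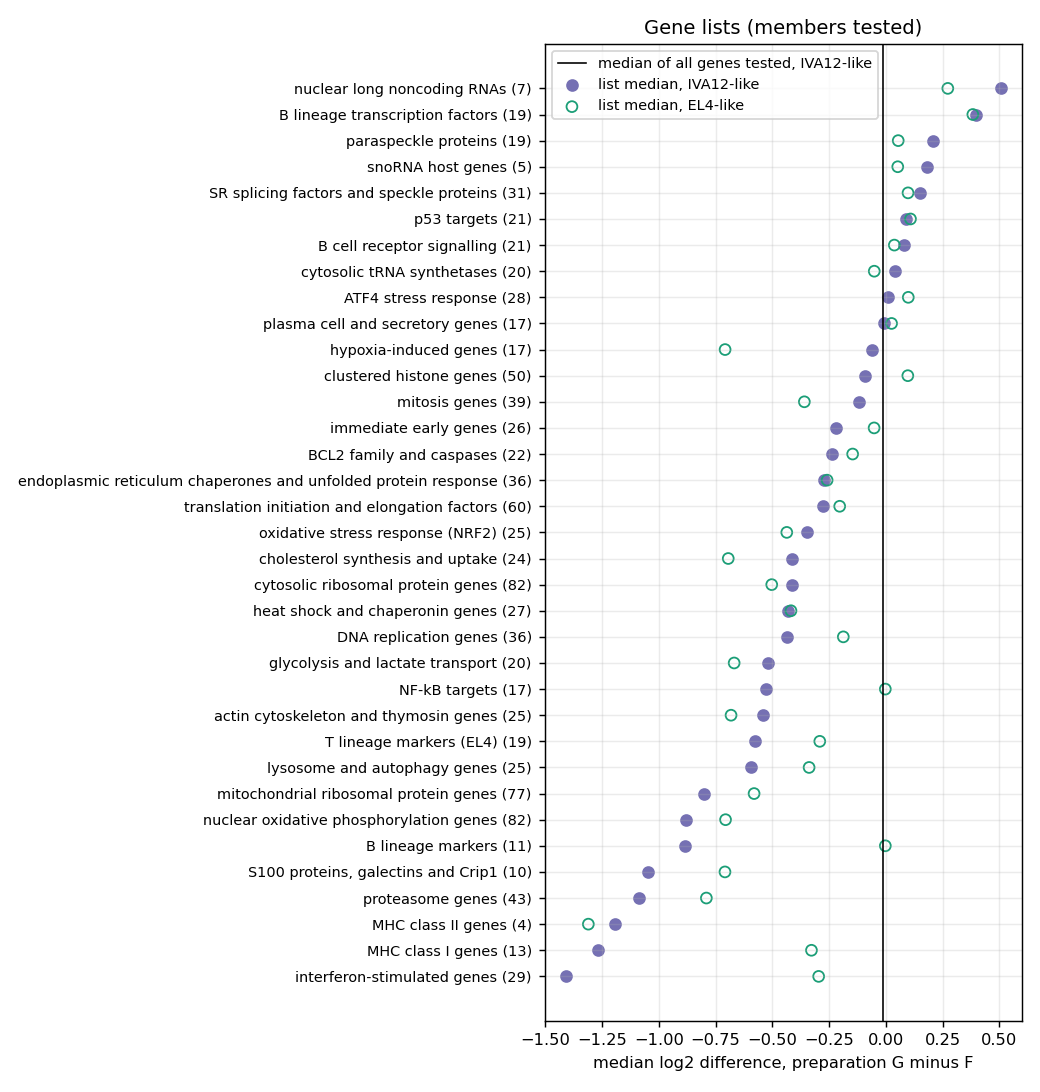
The x axis gives the median log2 difference of G minus F over the tested members of each of 35 gene lists, whose number is in brackets, in IVA12-like cells (filled) and EL4-like cells (open), with the median of all genes tested as a line at -0.01. The filled points run from -1.41 for interferon-stimulated genes to 0.51 for nuclear long noncoding RNAs.

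Called genes of the plasma cell programme went in both directions, at shares near those of all genes tested. Of 17 tested plasma cell and secretory genes 7 (41.2%) were higher and 6 (35.3%) lower, against 33.2% and 34.4% of all genes. Their median of -0.01 was that of all genes, and its sign changed under 6 of the alternatives. The abundant Jchain stood at 3461 and 3167 CPM in F and 1860 and 1805 in G, a log2 difference of -0.85 ± 0.07, and Mzb1 fell by 0.81 ± 0.06. Fkbp11, a prolyl isomerase of the secretory pathway, fell by 1.07 ± 0.07, whereas Ell2, an elongation factor that favours the secreted form of antibody, rose from 43.0 and 42.7 to 77.4 and 80.2, by 0.88 ± 0.06. Of 19 tested B lineage transcription factors 13 were higher, 2 lower and 4 not called, with a median of 0.40. Prdm1 stood at 29.8 and 31.1 in F and 53.7 and 50.3 in G, a log2 difference of 0.76 ± 0.07. Pou2f1 rose by 1.07 ± 0.07, Pou2f2 by 0.78 ± 0.07 and Tcf4 by 0.73 ± 0.07. In EL4-like cells 6 of the 19 were called higher and 0 lower, with a similar median of 0.38. The test of the difference called 3 of the 19 as higher in IVA12 and 1 as lower.

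The abundant B lineage markers were also split. Pou2af1, a coactivator of B cells, stood at 462 and 414 CPM in F and 612 and 620 in G and rose by 0.49 ± 0.07. The antigen receptor chain Cd79b stood at 352 and 379 in F and 193 and 189 in G and fell by 0.94 ± 0.06, and Ms4a1 fell by 0.42 ± 0.07 but was not called with library sizes alone. Blnk, an adaptor of receptor signalling, overlapped between preparations, at 142 and 129 in F and 145 and 141 in G. Over the list 7 of 11 were lower and 1 higher, and 4 were lower without library 22 or with DESeq2. For the 21 tested B cell receptor signalling genes 8 were higher and 10 lower, with a median of 0.08 whose sign changed under 6 of the alternatives, the omission of library 21, 23 or 24 among them.

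Of 36 tested genes of the endoplasmic reticulum 21 were lower and 10 higher, with a median of -0.27, and with library sizes alone 14 were lower and 13 higher. Sel1l and Syvn1, partners in the degradation of misfolded proteins, rose by 1.29 ± 0.06 and 1.17 ± 0.07, and the translocon gene Sec61a1 rose from 85.5 and 78.7 CPM to 187 and 184, by 1.18 ± 0.06. In EL4-like cells 17 of the 36 were lower and 7 higher.

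Immediate early genes, which respond within minutes to stimuli and handling, include some of the largest falls. Fosb, a subunit of AP-1, had 441 and 884 UMIs in libraries 21 and 23 and only 1 and 7 in libraries 22 and 24, or 23.1 and 18.3 CPM against 0.0806 and 0.302, a log2 difference of -6.48 ± 0.29 that became -7.91 without library 24. This value rests on the few UMIs of G and depends on the prior count of the fit. Fos stood at 12.9 and 15.2 CPM in F and 2.18 and 1.68 in G, a log2 difference of -2.92 ± 0.17. It was not called when the mitochondrial limit was 5%, which left 37 and 47 cells in libraries 22 and 24. Junb and Ier5 fell by 1.10 ± 0.07 and 1.01 ± 0.06. At 5000 UMIs 5.24% and 6.41% of IVA12-like cells held a Fos UMI in F and 0.532% and 1.10% in G, against 1.05% to 2.68% of EL4-like and at most 0.33% of human cells. Of 26 tested members 12 were lower and 6 higher, and the median of -0.22 became 0.04 with library sizes alone. In EL4-like cells 6 were lower and 6 higher, and the test of the difference called 9 of the 26 as lower in IVA12 and 2 as higher.

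Of 36 DNA replication genes 25 were lower in G and 6 higher, with a median of -0.44, and with library sizes alone 18 were lower and 9 higher, with a median of -0.18. In EL4-like cells 17 were lower and 5 higher, and the test of the difference called 16 as falling more in IVA12 and 1 as falling less. Rrm2, of the enzyme that makes deoxynucleotides, stood at 184 and 190 CPM in F and 80.7 and 73.5 in G and fell by 1.28 ± 0.07. The clamp loader gene Rfc4 fell by 1.27 ± 0.06, the primase gene Prim1 by 1.08 ± 0.07 and Dut by 0.89 ± 0.06. Of 39 mitosis genes 13 (33.3%) were higher and 17 (43.6%) lower, against 33.2% and 34.4% of all genes tested, so the share higher was that of all genes. Their median of -0.12 was -0.16 without library 24. With library sizes alone it became 0.14, and 16 were higher and 11 lower. In EL4-like cells 24 of the 39 mitosis genes were lower and 2 higher, and the test of the difference called 17 as higher in IVA12 and 2 as lower, against 7.38% and 9.01% of all genes.

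The other lists of metabolism and stress were mostly lower with TMM scaling. Called lower and higher were 12 and 4 of 20 glycolysis genes, 15 and 3 of 24 cholesterol genes, 20 and 1 of 25 lysosome and autophagy genes, 19 and 1 of 25 actin and thymosin genes, 18 and 5 of 27 heat shock and chaperonin genes, and 13 and 7 of 25 genes of the oxidative stress response. Among genes of translation, 62 of 82 cytosolic ribosomal protein genes were lower and 6 higher, with a median of -0.41 (44 to 69 lower and 2 to 10 higher when each library was left out, fewest lower without library 24 and fewest higher without library 22), as were 33 of 60 initiation and elongation factors with 14 higher. In 17 tested targets of NF-kB 9 were lower and 4 higher, and in 22 BCL2 family and caspase genes 12 and 6. With library sizes alone the balance of several lists narrowed or turned, to 5 lower and 7 higher for BCL2 family and caspase genes, 26 and 22 for initiation and elongation factors, 11 and 9 for the oxidative stress response, 10 and 6 for cholesterol genes and 40 and 14 for cytosolic ribosomal protein genes. Hypoxia-induced genes had a median of -0.06 in IVA12 and -0.71 in EL4-like cells, with 8 of 17 lower and 3 higher in IVA12 (8 and 7 with library sizes alone, where the median was 0.19), and the test of the difference called 11 of 17 as higher in IVA12 and 1 as lower.

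Few lists leaned upward. Of 31 tested SR splicing factor and speckle genes 15 were higher and 7 lower, and of 19 paraspeckle protein genes 10 and 4, with medians of 0.15 and 0.21. With library sizes alone these were 21 and 5, and 13 and 3, with medians of 0.41 and 0.46. The ATF4 stress response (9 of 28 higher, 11 lower), p53 targets (7 of 21 higher, 5 lower), tRNA synthetases (6 of 20 higher, 8 lower), clustered histone genes, many of them near copies (9 of 50 higher, 8 lower), and snoRNA host genes (1 of 5 higher, 0 lower) had medians between -0.09 and 0.18. With library sizes alone, 15 ATF4 genes were higher and 10 lower, 13 and 1 p53 targets, 12 and 5 tRNA synthetases, 16 and 5 histone genes and 3 and 0 snoRNA host genes. Without library 23, 17 histone genes were higher and 6 lower. Of 19 tested T lineage markers 5 were lower and 1 (Cd6) higher. The count rests on single libraries, since 15 were lower without library 21, while 4 were lower and 5 higher without library 23, where the median was 0.24 in place of -0.58. With the targeted capture as a block 10 were lower. Not all of these genes report RNA of EL4, since Cd6 stood at 0.47 to 0.85 raw CPM in EL4-like cells, below its level in IVA12-like cells, while Ptcra stood at 1.24 to 5.82 in EL4-like and 3.51 to 11.8 in IVA12-like cells and Cd2 at 15.9 to 27.8 and 10.6 to 18.8. Cd2 stood at 19.3 and 20.7 CPM in F and 9.83 and 9.78 in G, while Lat, at 6.80, 10.8, 3.87 and 7.80 in libraries 21, 23, 22 and 24, and Ptcra, at 3.82, 12.9, 6.21 and 6.03, overlapped between preparations.

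Between the lines the preparation effect differed for 2134 genes (16.4% of 13015), of which 961 were higher and 1173 lower in IVA12, 59 (0.453%) and 133 (1.02%) of them beyond 2-fold. Without library 24, 685 genes were called, and with DESeq2 977. With library sizes alone the split was 731 higher and 1746 lower. Among genes at 50 raw CPM or more in IVA12, the largest positive differences were those of Arhgef10 at 1.39 ± 0.11, the tetraspanin gene Cd53 at 1.11 ± 0.10, Dusp16 at 1.08 ± 0.12, Cytip at 1.06 ± 0.07 and the glucose transporter gene Slc2a1 at 0.98 ± 0.10. Arhgef10 stood at 18.0 and 17.8 in F and 47.0 and 46.0 in G in IVA12, with a log2 difference of -0.05 in EL4-like cells. Cytip fell by 0.27 in IVA12 and by 1.37 in EL4-like cells. Slc2a1 did not pass the test in IVA12, at 47.8, 51.5, 50.3 and 50.6 in libraries 21, 23, 22 and 24, and fell by 0.99 in EL4-like cells. The largest negative differences were those of Isg15, Hpx, Sfn, Crip1 and Fkbp11. In IVA12 Hpx fell by only 0.30 ± 0.07. In EL4-like cells it stood at 0.726, 1.42 and 0.745 raw CPM in libraries 21, 23 and 22 but at 6.51 in library 24. Of the UMIs of EL4-like cells of library 24, 1.84% came from 1 barcode. The human share of this sum was 2.38%, against a median of 0.294% per cell. The part of this barcode in the differences between the lines was not tested. Hpx, Sfn and Fkbp11 stood at only 0.726 to 9.87 raw CPM in EL4-like cells, while free RNA of the same libraries held Hpx at 29.3 to 57.2, Sfn at 52.1 to 80.8 and Fkbp11 at 22.0 to 47.9 raw CPM. With the estimated free RNA subtracted in both lines, 1798 genes were called for the difference between the lines, 1773 of them among the 2134. The values of Hpx, Sfn and Fkbp11 after that subtraction are not given here.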

How the data were processed

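Each file holds deposited counts, the number of UMIs of every gene in every barcode, with no normalization. Before counting, the authors used seqtk to thin the reads of each library to a depth set on its RNA-rich cells. Cell Ranger 3.0.2, named in the study's methods, made the counts on a joint human and mouse reference (release 1.2.0, hg19 and mm10), and all barcodes were kept. Groups were made from library numbers in the sample titles, and the mixtures from the study's sample table. Of the 3′ v2 kit, 1 library was not analysed here.

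UMIs of IVA12-like and EL4-like cells (the same rule with the marker sums exchanged) were summed per library. No doublet caller was run, and the marker ratio and the species share were the only filters on mixed barcodes. Mouse genes were tested with edgeR 4.0.16 (filterByExpr, TMM, glmQLFit, glmQLFTest), adjusted by Benjamini-Hochberg, and called at 0.05. DESeq2 1.42.0 was an alternative. Shares of cells carry exact (Clopper-Pearson) 95% intervals, which cover counting error only. Free RNA was estimated from the median human share of cells and the profile of barcodes under 100 UMIs.

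Members, gene lists and tests were chosen with earlier results of these data known. Named were Neat1, the 12 largest differences in each direction among called genes with a mean of 50 raw CPM or more in 1 preparation and no overlap (leaving out genes of the rule and symbols starting with Gm and a digit or ending in Rik), up to 4 members of a list by smallest p (by level for markers), and the 5 largest differences between the lines in each direction. Genes with several identifiers for 1 symbol were kept apart. No mouse annotation was used here, so no positions or sequences are given.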

Additional observations from a re-analysis of the deposited data

Results flagged for a closer look

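The difference of G minus F was not alike in the mouse lines for 54 of the 80 named genes, by the edgeR interaction test at an adjusted p under 0.05, against 16.4% of all 13015 genes tested. Since 10 of the named genes were taken for the size of this difference, and most others for a large or clear difference in IVA12, the count follows partly from the choice of genes. Neat1 was singled out with earlier results known, so its value is a description. All values are log2 differences of G minus F in IVA12-like minus EL4-like cells, and no explanation was tested. Higher and lower below refer to this value, not to the direction within IVA12. Cd53, listed as higher, had log2 differences of -0.81 in IVA12 and -1.96 in EL4-like cells. Ftx, listed as lower, had 0.57 and 1.21.

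Lower in IVA12 were the interferon and class I genes Isg15 (-1.96), Ifitm3 (-0.85), Ifi35 (-0.75), Ifi27 (-0.52), H2-Q7 (-1.18), H2-K1 (-1.05), H2-D1 (-1.02) and H2-T23 (-0.71). The immediate early genes Fosb (-3.48), Fos (-2.46), Junb (-1.18) and Ier5 (-0.42) were lower too, with Fosb at 0.354 to 3.40 raw CPM in EL4-like cells. Proteasome genes differed less, at -0.77 for Psmb8, -0.53 for Psmc4, -0.48 for Psmb3 and -0.33 for Psmb2. In the mitochondrion the values were -0.64 for Uqcrc2, -0.51 for Ndufs3, -0.48 for Ndufa4, -0.72 for Mrpl39, -0.52 for Mrpl24, -0.31 for Mrpl22 and -0.29 for Mrps34. Replication genes had -0.41 for Rrm2, -0.33 for Rfc4 and -0.29 for Prim1. Also lower were Hpx (-1.87), Sfn (-1.65), Crip1 (-1.60), Fkbp11 (-1.59), Napsa (-1.31), Pttg1 (-0.78), Lgals9 (-0.70), Emp3 (-0.67), Ftx (-0.66), Actr10 (-0.63), Gstp1 (-0.39) and Prdx1 (-0.17).

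Higher in IVA12 were Arhgef10 (1.39), Cd53 (1.11), Dusp16 (1.08), Cytip (1.06), Slc2a1 (0.98), Sel1l (0.81), Plec (0.75), Epc2 (0.73), Kcnq1ot1 (0.72), Kmt2c (0.56), Gabpb2 (0.49), Prdm2 (0.44), Pou2af1 (0.32), Neat1 (0.29), Sec61a1 (0.28) and Pou2f2 (0.28).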

How the results depend on the processing

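The count of calls between preparations was 6448 to 8324 under the alternatives that left out no library, except 5447 with cells thinned to 5000 UMIs and 4584 with a mitochondrial limit of 5%, where 37 and 47 cells remained in libraries 22 and 24 and 9476 genes were tested. Leaving out each library in turn gave 6513 to 8526 calls. The count for the difference between the lines was less stable: 977 with DESeq2, 241 with the limit of 5%, 1043 with cells thinned to 5000 UMIs, and 685 to 2571 when each library was left out, the lowest without library 24. The cause of these differences was not tested. Of its calls 45.0% were higher, against 68.1% without library 21, 72.2% after thinning, 61.7% without the filter, 29.5% with library sizes alone and 13.7% with the limit of 5%. The difference in genes detected stayed at 139 to 142 without each library. Of 1599 values of 80 named genes under the alternatives, 1567 kept direction and call, 14 lost the call, 11 gained it and 7 changed sign, none of them for the genes with the 12 largest differences. Most of the 80 genes were named for a large or clear difference in these data, which favours a stable sign and call. The changes of sign were Cd6 (-0.24) and Blnk (-0.085) with the limit of 5%, Blnk (-0.0048) and Ptcra (0.66) without library 23, and Slc2a1 without the filter (-0.010), without library 21 (-0.0055) and at a marker ratio of 20 (-0.039). Without each library in turn, Ptcra ranged from -1.06 to 0.66, Blnk from -0.0048 to 0.17 and Slc2a1 from -0.0055 to 0.063. Of 35 list medians 10 changed sign under some alternative, all between -0.58 and 0.08. Of 719 values of list medians under the alternatives, with all genes tested counted as a list, 210 moved by at least the spread between libraries of a preparation. The labels give no replicate number that pairs libraries across preparations. Pairing them by targeted capture (21 with 22, 23 with 24) as a block gave 8324 calls. With 2 libraries of 1 mixture a preparation, the tests do not reach differences between further mixtures.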
